A study of Mus musculus with 29 samples.

Results

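The core fasting response of mouse skeletal muscle was taken as the set of genes that fasting moved the same way in 4 genotypes of mice. All 29 libraries of the series were used, 14 from fasted and 15 from fed mice, with the genotype label as a block. A gene was counted as core when its shared fasting coefficient passed the test (edgeR quasi-likelihood F test, Benjamini-Hochberg adjusted p under 0.05) and when its log2 fold change, fasted over fed, had the same sign in each of the 4 blocks. Of 48023 genes counted, 12760 had enough reads for the test, and 5441 of these (42.6%) were core: 2654 were higher (20.8%) and 2787 lower (21.8%) in fasted muscle. The equal sign is part of the rule and is no finding in itself.

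The labels say skeletal muscle without naming which one. The muscle is probably tibialis anterior (TA), a fast muscle of the lower leg. Figure legends of the study name it for the sequencing of p110α controls and knockouts, fed and fasted, and for reads of floxed mice of both lines. It is not stated for every library, such as those of the p110β knockouts. The mice were males of C57BL/6J label, 2–3 months old, of 2 lines. In the p110α line exon 1 of Pik3ca was floxed and in the p110β line exon 2 of Pik3cb. Controls (p110alpha.WT and p110beta.WT in the labels) carried the floxed alleles without Cre. Knockouts (p110alpha.KO and p110beta.KO, here M-p110αKO and M-p110βKO) also carried Cre under the human α-skeletal actin promoter, which acts in muscle fibers, so that other cells of the muscle kept the gene. There were 4 fed and 4 fasted p110α controls, 4 fed and 3 fasted M-p110αKO, 3 fed and 3 fasted p110β controls, and 4 fed and 4 fasted M-p110βKO, each library from 1 mouse by its label. Fasted mice were held in a new cage without food for a day, and both feeding states thus differ in more than the food. The genetic background of the p110β line is less purely C57BL/6, and the hour at which each mouse was sampled is not stated in the labels or methods.

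In a fasting mammal insulin falls and glucocorticoids rise. With less insulin, class I PI3K and AKT are less active, FoxO transcription factors stay in the nucleus, and muscle raises its ubiquitin ligases and autophagy genes and gives up amino acids. At the same time fatty acids from adipose tissue activate PPAR receptors in the fiber, which shifts fuel use from glucose to fat. Pik3ca and Pik3cb encode the catalytic subunits p110α and p110β of PI3K. The counts are summed over all exons and do not check the deletion of 1 exon. Over all mice Pik3ca rose on fasting by 0.20 ± 0.08 (log2 fold change ± SE, edgeR adjusted p = 0.0346), but it was lower in p110β controls and so is no core gene, and Pik3cb changed by 0.09 ± 0.07 and did not pass (0.323).

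The libraries held 5351935 to 11653239 reads assigned to genes, and the medians were 7947413 in fed and 7686637.5 in fasted mice. Mitochondrially encoded genes took 8.59–12.3% of reads in fed and 6.99–12.2% in fasted libraries. Levels below are CPM, counts scaled to the same library total with TMM factors over all 29 libraries. They compare libraries for 1 gene, not genes of different length. The fasted p110β controls with the label numbers 23 and 24 stood apart in adipocyte markers. Adipoq was at 19.0 and 24.6 CPM there and at most 3.89 in the 27 other libraries, Plin1 at 25.7 and 22.3 against at most 2.47, Cidec at 33.7 and 30.5 against at most 3.51, and Cfd at 56.4 and 52.3 against at most 5.11. Car3 was at 343 and 309 CPM, below the 1343 of the next lowest library. Without both, an alternative added after the data were seen, 2633 genes were core and higher and 2767 core and lower, 2489 and 2615 of them among those found with all libraries, and the interaction test called 1044 genes. This leaves 1 fasted p110β control, which is assumed to vary like the other groups. Differences are log2 fold changes, fasted over fed, with their SE. In bulk muscle a change in the number of cells of a type cannot be told apart from a change of RNA per cell.

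Among the core genes fasting raised 22 of 38 genes of fatty acid uptake and oxidation, 25 of 48 autophagy genes, 23 of 44 proteasome subunits and 28 of 49 genes of ribosome biogenesis. It lowered 52 of 76 nuclear-encoded genes of oxidative phosphorylation, 17 of 31 genes of calcium handling and 37 of 74 genes of cytosolic ribosomal proteins. Over all genes tested 20.8% were core and higher and 21.8% core and lower. The rises of Trim63 and Fbxo32, which encode the main ubiquitin ligases of muscle atrophy, and of Pdk4, which spares glucose, were among the 15 largest, and the growth factor binding protein gene Igfbp5 was among the 15 largest falls.

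Over all genes tested 3348 (26.2%) were called higher and 3394 (26.6%) lower, and 1301 of these calls did not move the same way in each block. Most core changes were small: 298 core genes rose and 293 fell by at least 1 on the log2 scale, and 101 and 118 did so in every block. Fasted and fed libraries did not overlap in any of the 4 blocks for 546 genes that were higher (4.28%) and 366 that were lower (2.87%), all of them core. In 236 and 161 genes every fasted library lay beyond every fed one over all 29 mice. Tested block by block, 596 core genes were called higher in each of the 4 (4.67%) and 427 lower (3.35%), while 317 core genes that rose and 457 that fell were called in no single block. Just inside the threshold lay Avpi1, at −0.25 ± 0.11 with an adjusted p of 0.0499, and just outside Sertad1, at 0.20 ± 0.09 with 0.0501.

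The largest rise among core genes whose log2 CPM averaged at least 1 and which had no overlap in any block was that of Acot1, which encodes a cytosolic acyl-CoA thioesterase that frees fatty acids from CoA. It held 0–0.790 (median 0.285) CPM in fed and 3.80–22.2 (median 15.2) CPM in fasted libraries (lowest to highest, median), a log2 fold change of 5.32 ± 0.26 (edgeR adjusted p = 3.09e-16). Every fasted library was above every fed one, but the fed level was near 0, so the fold is less exact than its test. Acot2, its neighbor on chromosome 12, encodes the mitochondrial thioesterase. It held 13.8–43.4 (median 25.8) CPM fed and 152–289 (median 215) CPM fasted, 3.05 ± 0.14 higher (adjusted p = 3.73e-17), again with no overlap over all mice. Both are near-identical copies, and reads may have been split between them.

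Trim63 encodes the ubiquitin ligase MuRF1, which marks thick-filament proteins for the proteasome. It held 386–1098 (median 559) CPM in fed and 1380.4–6389.8 (median 4356) CPM in fasted libraries, all fasted above all fed. Its log2 fold change was 2.71 ± 0.21 (edgeR adjusted p = 3.05e-12), and by block 2.79, 1.30, 3.54 and 3.07 in p110α controls, M-p110αKO, p110β controls and M-p110βKO (interaction adjusted p = 0.00152). Fbxo32 encodes atrogin-1, the other muscle ubiquitin ligase of atrophy. It held 418–627 (median 556) CPM fed and 1690.2–4207 (median 3131) CPM fasted, 2.49 ± 0.10 higher (adjusted p = 1.37e-18) with blocks at 2.90, 2.21, 2.32 and 2.44. Its fed libraries lay closer together than those of Trim63, and none reached the lowest fasted one. Gm15943 overlaps Fbxo32, and without stated strand their reads cannot be told apart.

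Pdk4, which encodes the kinase that shuts off pyruvate dehydrogenase and so spares glucose, held 372–3298 (median 924) CPM fed and 4423–7420.3 (median 5652) CPM fasted. Its log2 fold change was 2.39 ± 0.24 (edgeR adjusted p = 7.08e-10), and the groups stood apart over all mice although fed libraries spread widely. Retreg1, which encodes a receptor for autophagy of the endoplasmic reticulum, went from 220.4–610.1 (median 353) to 1535–2734 (median 1853) CPM, 2.48 ± 0.10 higher (adjusted p = 8.1e-18). Il6ra, the α chain of the interleukin 6 receptor, went from 2.58–23.8 (median 5.70) to 25.1–108 (median 70.6) CPM, 3.01 ± 0.27 higher (adjusted p = 1.17e-10). In both genes the highest fed library stayed below the lowest fasted one.

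The other large rises were in Rassf4 (2.47 ± 0.15), a Ras-association domain gene whose reads overlap Depp1, Acss1 (2.29 ± 0.17), encoding the mitochondrial acetyl-CoA synthetase, Wdr62 (2.19 ± 0.15), encoding a centrosome scaffold, and Nxpe3 (2.15 ± 0.15). Tgif1, encoding a repressor of TGF-β signaling, rose by 2.11 ± 0.16, Slc25a34, of the mitochondrial carrier family, by 2.06 ± 0.20, Sesn1, encoding the mTORC1 inhibitor sestrin 1, by 2.04 ± 0.15, and Angptl4, encoding an inhibitor of lipoprotein lipase, by 2.03 ± 0.22. The edgeR adjusted p of these 8 genes was at most 4.13e-09.

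The largest fall by the same rule was that of Cited4, which encodes a coregulator that binds CBP and p300. It held 2.14–10.1 (median 4.57) CPM in fed and 0.285–1.72 (median 0.529) CPM in fasted libraries, −3.01 ± 0.18 (edgeR adjusted p = 1.73e-14), with no overlap over all mice. Igfbp5, which encodes a protein that binds IGF1 and IGF2, held 297–1286 (median 1044) CPM fed and 76.7–172 (median 131) CPM fasted, −2.77 ± 0.13 (adjusted p = 3.73e-17). All fasted libraries again lay below all fed ones, and M-p110αKO had the smallest of the 4 folds at −2.00. Its fed level was lower, at 297–522 CPM against 833–1286 CPM in the other fed libraries. Fasted M-p110αKO held 76.7–136 CPM and the other fasted libraries 102–172 CPM. Prkag3, which encodes the γ3 subunit of AMPK found in fast fibers, held 121–439 (median 333) CPM fed and 31.2–82.8 (median 65.2) CPM fasted, −2.31 ± 0.14 (adjusted p = 5.07e-14).

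Kcng4, encoding a modifier subunit of voltage-gated potassium channels, changed by −2.47 ± 0.15, Plcd4, a phospholipase C, by −2.43 ± 0.13, and Ky, encoding a Z-disc protease-like protein, by −2.32 ± 0.16. Nrep (−2.22 ± 0.16), Tnfaip2 (−2.14 ± 0.15), Cntnap2 (−2.14 ± 0.14), encoding a cell adhesion protein, and Trim7 (−2.08 ± 0.10), encoding a ligase that binds glycogenin, fell as well. So did Fam78a (−2.81 ± 0.18), 6430571L13Rik (−2.19 ± 0.13), D430041D05Rik (−2.86 ± 0.17) and the noncoding B230312C02Rik (−2.07 ± 0.15). Foxo6os, antisense to the FoxO gene Foxo6, changed by −2.11 ± 0.18 and Foxo6 itself, at 1.89–5.80 (median 3.92) CPM fed and 0–1.33 (median 0.457) CPM fasted, by −3.06 ± 0.28. Reads of this pair cannot be told apart without strand, nor can those of Plcd4 and Usp37, Fam78a and Nup214, or Trim7 and Gm16170, which overlap. The edgeR adjusted p of these 13 genes was at most 2.25e-10.

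**Figure D1:**
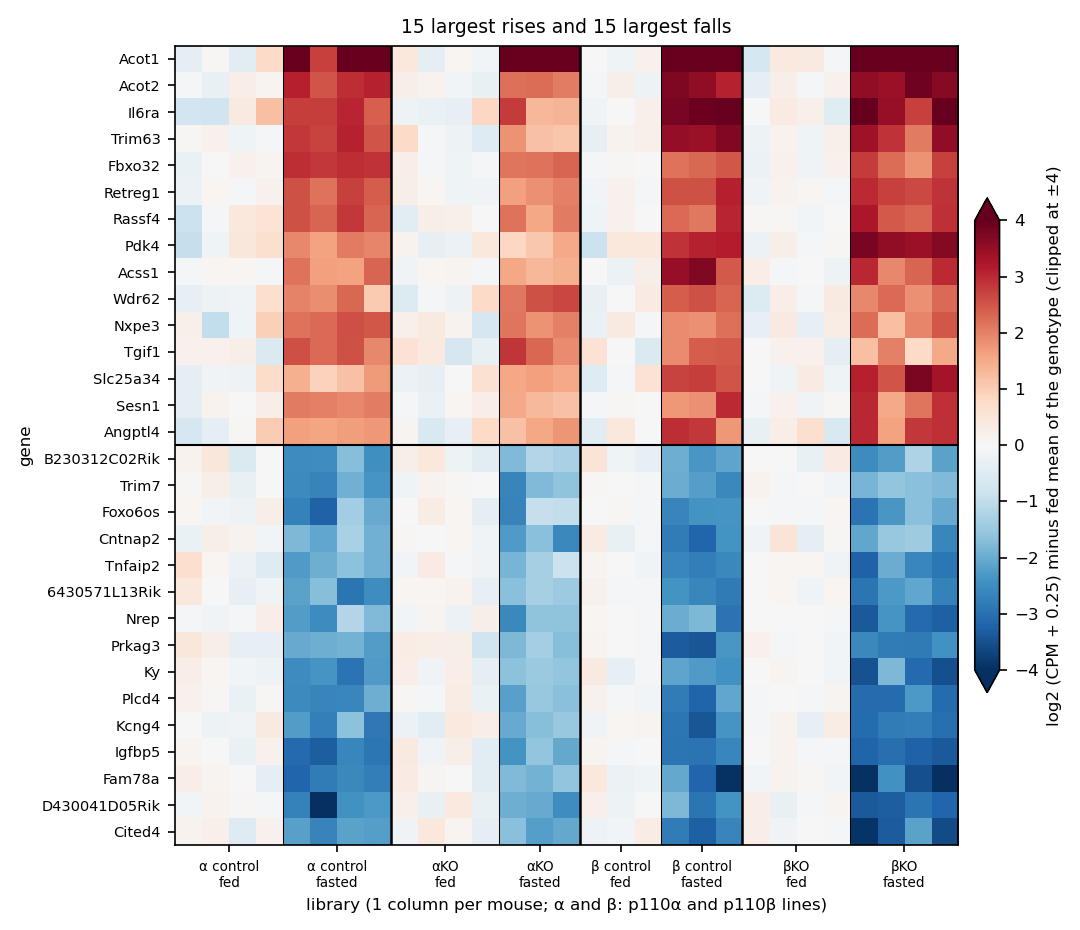
Log2 CPM of the 15 largest rises and the 15 largest falls in each of the 29 libraries, relative to the fed mean of the same genotype, with columns grouped by genotype and feeding state. Red is higher and blue lower than the fed mean on a scale of −4 to 4. Within every genotype all fasted libraries lie on 1 side of all fed ones for each of the 30 genes, as their choice required, and the fold of M-p110αKO is the smallest of the 4 for 23 of them.

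**Figure D2:**
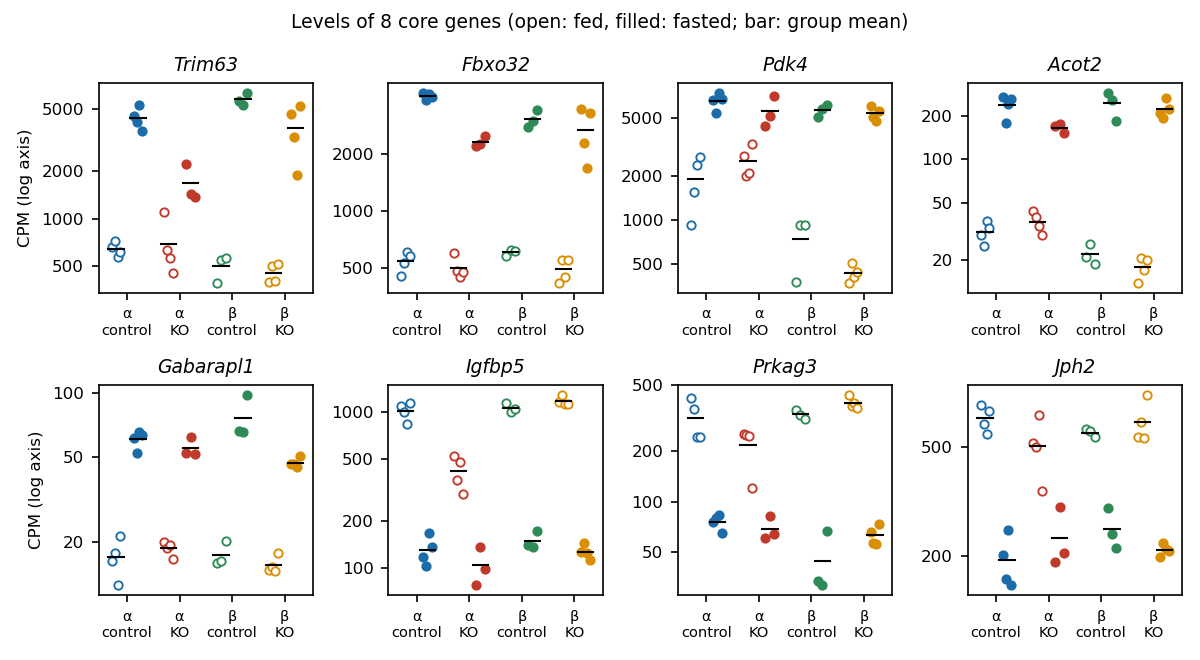
CPM (log axis) of 8 core genes in each library, with 1 point per mouse, open for fed and filled for fasted, and a bar at each group mean. Trim63, Fbxo32, Pdk4, Acot2 and Gabarapl1 are higher and Igfbp5, Prkag3 and Jph2 lower in fasted muscle of each genotype. The smallest rise of Trim63 is in M-p110αKO.

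Promoter windows of RefSeq (GRCm38.p6, 250 bases before to 50 after each transcription start) were searched for letters that FoxO factors and others are known to bind, on both strands. Of 11670 protein-coding genes tested 9375 (80.3%) matched a window by Ensembl gene ID or, failing that, by symbol or older symbol. The FoxO core motif GTAAACA was in the windows of 3.38% of the core genes that rose, 1.97% of those that fell and 3.07% of all. The stretch of Trim63 that holds it is shown because this gene carries the largest rise of a muscle ligase, and that of Retreg1 for the letters TGACGTCA, known from CREB and ATF factors. The motif is in capitals, both stretches are 5′ to 3′ on the gene's strand, and TGTTTAC is GTAAACA read on the other strand.
Trim63, chr4:134314896-134314962, plus strand: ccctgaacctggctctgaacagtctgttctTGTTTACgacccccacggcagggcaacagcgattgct
Retreg1, chr15:25843120-25843187, plus strand: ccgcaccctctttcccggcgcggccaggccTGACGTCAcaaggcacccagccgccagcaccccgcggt
TGACGTCA was in the windows of 4.07% of the core genes that rose, 4.03% of those that fell and 3.68% of all. In the same order CACGTG, the E-box of TFEB and MYC factors, was in 14.2%, 10.6% and 12.0%. TTATGTAA, the D-box of clock output factors, was in 0.441%, 0.719% and 0.629%, and GAANNTTC, of heat shock factors, in 6.67%, 6.91% and 6.97%. TCACNCCAC, of SREBP factors, was in 1.67%, 1.34% and 1.41%. TCAAGGTCA, of estrogen-related receptors, was in 0.0490%, 0.576% and 0.320%, few genes in each case. None of the 7 motifs contains another, and no test was made of these shares.

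Genes of protein breakdown were higher in fasted muscle on balance. As core genes 15 of 28 atrophy ligases, 23 of 44 proteasome subunits and 25 of 48 autophagy genes rose, shares of 53.6, 52.3 and 52.1% beside 20.8% of all genes. Of 28 ubiquitin ligases and F-box genes of muscle atrophy 15 were core and higher, 5 core and lower, 3 were called without moving the same way in each block and 5 did not pass, with a median log2 fold change of 0.21 beside −0.01 over all genes. Besides Trim63 and Fbxo32, Klhl38 rose by 1.54 ± 0.09, Ube4b, which extends ubiquitin chains, by 0.90 ± 0.05, and Fbxo21 by 0.85 ± 0.06 (edgeR adjusted p at most 1e-12). Against them fell Kbtbd13 (−1.06 ± 0.10), an adaptor of a ubiquitin ligase of the thin filament, Fbxl22 (−1.21 ± 0.14), a Z-disc ligase subunit, and Trim55 (−0.47 ± 0.07), the ligase MuRF2 (adjusted p at most 1.47e-06). Ubiquitin genes and E2 enzymes were split, with 6 of 21 core and higher (28.6%) and 4 core and lower (19.0%, beside 21.8% of all genes). Among them were Ube2g1 at 0.54 ± 0.06 and Ube2d2a at −0.76 ± 0.07.

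Of 44 proteasome subunits 23 rose and 7 fell as core genes. Psmd11, a lid subunit of the 19S cap, held 105–151 (median 126) CPM in fed and 206–352 (median 259) CPM in fasted libraries, 1.06 ± 0.06 higher (edgeR adjusted p = 2.75e-15), and the 2 states did not overlap in any block. The cap subunits Psmd4 (0.72 ± 0.06), Psmd1 (0.54 ± 0.05), Psmd2 (0.51 ± 0.05) and Psmd3 (0.57 ± 0.07) rose with it. The members that fell included Psme1 (−0.57 ± 0.07) and Psme2 (−0.56 ± 0.10), which form the interferon-inducible 11S cap, and the catalytic Psmb5 (−0.51 ± 0.09). The adjusted p of these 7 genes was at most 2.76e-05.

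Of 48 autophagy genes 25 were core and higher and 9 core and lower (median 0.25). Gabarapl1, an ATG8 protein that coats the autophagosome, held 12.5–21.3 (median 16.6) CPM fed and 44.9–97.6 (median 57.0) CPM fasted, 1.76 ± 0.08 higher (edgeR adjusted p = 3.73e-17), with every fasted library above every fed one. Ulk1, the kinase that starts autophagosomes, held 81.3–112 (median 97.8) CPM fed and 171–405 (median 266) CPM fasted, 1.47 ± 0.07 higher (adjusted p = 3.09e-16), again without overlap over all mice. Their block folds were close, at 1.82, 1.57, 2.13 and 1.59 for Gabarapl1 and 1.31, 1.53, 1.78 and 1.34 for Ulk1 (interaction adjusted p = 0.173 and 0.237). Zfyve1 (1.48 ± 0.09), a marker of the membrane where autophagosomes form, and the cargo receptors Sqstm1 (0.89 ± 0.07) and Tax1bp1 (0.79 ± 0.06) also rose. Trp53inp2, which carries LC3 out of the nucleus, fell by 0.92 ± 0.07, the protease gene Atg4d by 0.57 ± 0.08 and Atg101, of the ULK1 complex, by 0.66 ± 0.09 (adjusted p at most 3.22e-07).

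Of 63 lysosome genes 20 were core and higher and 9 core and lower, shares of 31.7% and 14.3% beside 20.8% and 21.8% of all genes. Lamp2, encoding a membrane protein of the lysosome, rose by 0.80 ± 0.06, the protease gene Ctsl by 0.86 ± 0.09, and the proton pump subunits Atp6v1h and Atp6v1a by 1.07 ± 0.08 and 0.70 ± 0.07. Flcn, encoding folliculin, which holds TFEB in the cytoplasm when amino acids are present, rose by 0.87 ± 0.07, while Tfeb itself, the regulator of lysosome genes, fell by 0.42 ± 0.07 (edgeR adjusted p at most 2.58e-05 for these 6). With upper-quartile factors the lysosome counts were 16 and 14.

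Genes of the insulin and IGF pathway rose on balance. Of 38 members 16 were core and higher (42.1%) and 5 core and lower (13.2%), beside 20.8% and 21.8% of all genes. Insr, the insulin receptor, held 66.6–141 (median 108) CPM fed and 124–275 (median 200.1) CPM fasted, 0.98 ± 0.06 higher (edgeR adjusted p = 1.83e-14), and Igf1r, the receptor of IGF1, held 26.1–50.6 (median 36.9) and 50.2–95.6 (median 73.5) CPM, 0.95 ± 0.05 higher (3.34e-16). Both receptors rose by nearly the same amount in each block, 1.00, 1.05, 0.85 and 1.01 for Insr and 1.04, 0.90, 0.86 and 0.96 for Igf1r. Tsc1, a brake on mTORC1, rose by 0.66 ± 0.05. Besides Igfbp5, Pik3cd, the PI3K catalytic subunit of immune cells, changed by −1.21 ± 0.11, and Grb14, an adaptor that restrains the insulin receptor, by −0.59 ± 0.10 (adjusted p at most 8.21e-06). Igf1, the ligand, held 5.18–17.2 (median 10.4) CPM fed and 1.84–9.38 (median 5.24) CPM fasted and changed by −1.09 ± 0.19 (2.02e-05), with overlap of the states.

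Among 26 FoxO and growth-brake genes 8 were core and higher (30.8%) and 4 core and lower (15.4%), beside 20.8% and 21.8% of all genes. Eif4ebp1, the brake on cap-dependent translation that mTORC1 releases, held 10.8–27.0 (median 13.6) CPM fed and 32.9–80.4 (median 50.2) CPM fasted, 1.82 ± 0.14 higher (edgeR adjusted p = 3.52e-12), and states did not overlap in any block. Foxo3 rose by 1.26 ± 0.11 and Foxk1 by 0.88 ± 0.07, while Bcl6 (−1.12 ± 0.15), Sesn3 (−0.43 ± 0.09) and Foxo6 fell (adjusted p at most 0.000107). The sestrins thus moved in opposite directions, Sesn1 higher and Sesn3 lower.

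Genes that make ribosomes and the genes of ribosomal proteins moved in opposite directions. Of 49 biogenesis genes 28 were core and higher (57.1%, beside 20.8% of all genes) and 6 core and lower, at a median of 0.25. Ddx21 (0.96 ± 0.07), a helicase of rRNA processing, Utp20 (0.82 ± 0.07) and Wdr43 (0.79 ± 0.06) were among those that rose (edgeR adjusted p at most 5.81e-11). Of 74 cytosolic ribosomal protein genes 1 was core and higher, Rpl3 at 0.23 ± 0.10, a call lost when any 1 of 12 libraries was left out, and 37 were core and lower (median −0.30), such as Rps10 (−0.56 ± 0.09) and Rpl27a (−0.52 ± 0.09). These are short genes, with a median exon length of 1805.5 bases, and corrected by a spline on length and GC content 23 stayed core and lower at a median of −0.16. Of 40 translation factors 19 rose (47.5%) and 9 fell (22.5%, near the share of all genes) as core genes. Eif3a was at 0.86 ± 0.06 and the cap-binding Eif4e at −0.44 ± 0.05.

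Amino acid transporter genes were higher, 7 of 19 as core genes (36.8%, beside 20.8% of all genes) and 1 lower. Slc7a2, a carrier of arginine and lysine, held 61.1–172 (median 108) CPM fed and 212–640.2 (median 340.4) CPM fasted, 1.78 ± 0.13 higher (edgeR adjusted p = 6.65e-13), with no overlap in any block. Slc15a4, a lysosomal peptide and histidine carrier, rose by 1.28 ± 0.10 and Slc43a1, which exports branched-chain amino acids, by 1.23 ± 0.15. The states of Slc43a1 overlapped in M-p110βKO, at 12.0–18.3 CPM fed and 16.9–43.1 CPM fasted. Of 23 breakdown genes of branched-chain amino acids 1 was core and higher (4.35%) and 3 were core and lower (13.0%), both below the shares of all genes. Another 7 were called without a common direction. The counts of core and higher and of core and lower genes of this list were 1 and 7 with upper-quartile factors and 3 and 5 with counts corrected for length and GC content. They were 2 and 5 without the 2 fasted p110β controls high in adipocyte markers. Amd1, the decarboxylase that commits S-adenosylmethionine to polyamine synthesis, held 217–1357 (median 846) CPM fed and 153–415 (median 244) CPM fasted, −1.55 ± 0.12 (4.71e-12), all fasted libraries being below all fed ones of their block. Odc1, the other key enzyme of polyamine synthesis, rose by 1.07 ± 0.14 and Smox, which oxidizes spermine, changed by −0.90 ± 0.13 (adjusted p at most 1.57e-06). The states of Odc1 overlapped in p110β controls, at 74.0–134 CPM fed and 112–295 CPM fasted.

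Fatty acid genes rose. Of 38 genes of fatty acid uptake and oxidation 22 were core and higher (57.9%, beside 20.8% of all genes) and 1 core and lower, Acsl5 at −0.34 ± 0.10. Cd36, the fatty acid transporter of the fiber surface, held 278–659.8 (median 456) CPM fed and 691–1428 (median 942) CPM fasted, 1.17 ± 0.09 higher (edgeR adjusted p = 3.12e-12), without overlap in any block. Acsl1, which activates fatty acids, rose by 0.93 ± 0.08, the transporter gene Slc27a1 by 0.81 ± 0.08, and Etfdh, which passes electrons from β-oxidation to the respiratory chain, by 0.69 ± 0.06 (adjusted p at most 2.07e-09). The folds of the list were larger in the p110β line. Its median was 0.24 in p110α controls and 0.22 in M-p110αKO against 0.56 and 0.69 in p110β controls and M-p110βKO. Of its genes 16 passed the interaction test (10.0% of all genes did). Fed levels of Acsl1 and Etfdh were lower in the p110β line, at 139–181 and 101–126 CPM against 256–396 and 167–213 CPM. Their fasted levels there were 248–450 and 174–249 CPM against 407–637 and 226–314 CPM. The part of fed levels in the folds of the list was not tested.

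Of 22 PPAR targets 12 were core and higher (54.5%) and 4 core and lower (18.2%), beside 20.8% and 21.8% of all genes, at a median of 0.73. The block medians were 0.27 in p110α controls and 0.24 in M-p110αKO but 1.17 and 1.38 in p110β controls and M-p110βKO. The interaction test called 9 of the 22, and 10.0% of all genes. Plin5, which coats lipid droplets beside mitochondria, rose by 1.70 ± 0.16. Those that fell were Rxrg (−1.17 ± 0.10), a partner receptor of PPARs, Pdp1 (−1.06 ± 0.09), the main phosphatase that switches pyruvate dehydrogenase on, Hilpda (−0.84 ± 0.16), an inhibitor of lipolysis, and the thioesterase gene Acot13 (−0.31 ± 0.09), named after its value was seen. Of 16 lipolysis genes 9 rose (56.25%, beside 20.8% of all genes) and 1 fell as core genes. Pnpla2, the triglyceride lipase ATGL, held 139.5–232 (median 179.9) CPM fed and 311–644 (median 507) CPM fasted, 1.34 ± 0.08 higher (edgeR adjusted p = 4.9e-14), while G0s2, its inhibitor, held 1.63–15.5 (median 5.09) and 0.266–9.47 (median 1.82) CPM, −1.23 ± 0.26 (0.000226). The lipase stood apart in every block, and its inhibitor overlapped between states. Lpin1, a phosphatidate phosphatase and coactivator, rose from 504–902 (median 648) to 1283–1723 (median 1517) CPM (1.17 ± 0.08, adjusted p = 2.96e-13).

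Genes of lipid synthesis were mixed. Of 20 lipogenesis genes 4 rose and 7 fell as core genes. The share that rose was near the 20.8% of all genes, and the share that fell was above the 21.8% of all genes. Srebf1, the regulator that insulin induces, changed by −1.07 ± 0.12, the desaturase gene Scd2 by −1.01 ± 0.13 and Mlxipl, the carbohydrate-responsive factor ChREBP, by −0.57 ± 0.08, while Acacb, which makes the malonyl-CoA that holds back fatty acid entry into mitochondria, rose by 0.99 ± 0.09 (edgeR adjusted p at most 6.11e-07). Of 25 cholesterol genes 9 fell (36.0%, beside 21.8% of all genes), such as Dhcr7 (−1.43 ± 0.11). Another 3 rose, namely Fdft1 (0.81 ± 0.06), Mvd (1.01 ± 0.14) and Lss (0.39 ± 0.09).

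Glucose genes fell more often than they rose. Of 27 glycolytic genes 11 were core and lower (40.7%) and 3 core and higher (11.1%), beside 21.8% and 20.8% of all genes. Gpd1, of the glycerol phosphate shuttle, changed by −0.92 ± 0.07, Pgam2, the muscle phosphoglycerate mutase, by −0.99 ± 0.13, and Tpi1 by −0.66 ± 0.06. Fbp2, the muscle fructose bisphosphatase, which runs opposite to glycolysis, rose from 32.0–54.1 (median 43.3) to 71.2–211 (median 99.9) CPM (1.42 ± 0.13, edgeR adjusted p = 3.18e-10). Among 21 glycogen genes 5 rose and 5 fell as core genes, 23.8% each and near the shares of all genes. Phkg1, the catalytic subunit of muscle phosphorylase kinase, changed by −0.86 ± 0.06, Pgm1 by −0.81 ± 0.07 and Ugp2, which makes UDP-glucose, by 0.88 ± 0.14 (adjusted p at most 2.84e-06). The TCA cycle and pyruvate dehydrogenase genes were split, with 6 core and higher (18.75%) and 10 core and lower (31.25%) of 32. The kinase Pdk4 rose while the phosphatases went apart, Pdp1 lower and Pdp2 higher (1.33 ± 0.19).

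Nuclear-encoded genes of oxidative phosphorylation fell. Of 76 genes 52 were core and lower (68.4%, beside 21.8% of all genes) and 1 core and higher, Uqcrc2 of complex III at 0.28 ± 0.07. The median was −0.38, and by block −0.37, −0.41, −0.33 and −0.19. Ndufv3 changed by −0.65 ± 0.08, Ndufa8 by −0.47 ± 0.06 and Ndufb10 by −0.51 ± 0.07, all of complex I, and Atp5d of the ATP synthase by −0.48 ± 0.07 (edgeR adjusted p at most 1.28e-06). These are short genes too, with a median exon length of 1578 bases, and with this correction for length and GC content 43 stayed core and lower at a median of −0.26. Of the 13 mitochondrially encoded genes 2 were core and lower (15.4%) and 1 core and higher (7.69%), both below the shares of all genes. Among regulators, Ppargc1b, encoding PGC-1β, changed by −1.08 ± 0.14, Esrra, encoding the receptor ERRα, by −0.63 ± 0.08 and Nrf1 by 0.43 ± 0.06. Fis1 (−0.53 ± 0.07) and Mtfp1 (−0.75 ± 0.11), of mitochondrial fission, fell (adjusted p at most 1.03e-06).

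Of 24 energy-sensing and nucleotide genes 7 were core and lower (29.2%, beside 21.8% of all genes), 2 core and higher and 5 called without a common direction. Beside Prkag3, Nmrk2, which makes NAD from nicotinamide riboside, held 44.7–181 (median 109.8) CPM fed and 14.2–43.0 (median 26.6) CPM fasted, −1.82 ± 0.14 (edgeR adjusted p = 2.73e-12), with no overlap in any block. Gamt, the last enzyme of creatine synthesis, changed by −1.45 ± 0.14, Ampd1, the AMP deaminase of muscle, by −1.09 ± 0.09, and Prkaa2, the α2 subunit of AMPK, rose by 0.38 ± 0.08 (adjusted p at most 0.000161).

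Calcium handling genes were mostly lower. Of 31 genes 17 were core and lower (54.8%, beside 21.8% of all genes) and 4 were called without moving the same way in each block. The 1 core and higher was Atp2a2, the slow-fiber calcium pump, at 0.36 ± 0.10. Jph2, which ties the T-tubule to the sarcoplasmic reticulum, held 345–779 (median 571) CPM in fed and 155–301 (median 209.5) CPM in fasted libraries, −1.42 ± 0.10 (edgeR adjusted p = 5.29e-13), and all fasted libraries lay below all fed ones. The calmodulin gene Calm2 (−1.33 ± 0.09), the calcium channel subunit Cacnb1 (−0.95 ± 0.07) and its partner Stac3 (−0.82 ± 0.07) fell with Jph2 (adjusted p at most 1.9e-11). Block folds of Calm2 were −1.41, −1.24, −1.27 and −1.38.

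Of 54 sarcomere and Z-disc genes 16 rose (29.6%, beside 20.8% of all genes) and 13 fell (24.1%, beside 21.8%) as core genes. Among the most abundant, Mylpf, the fast regulatory light chain, changed by −0.79 ± 0.07 and Tpm1, encoding α-tropomyosin, by −0.80 ± 0.08, while Nrap, a scaffold of myofibril assembly, rose by 0.83 ± 0.08 and Pdlim5 by 0.86 ± 0.09 (edgeR adjusted p at most 1.13e-09). Of 21 denervation and junction genes 6 were core and lower (28.6%), among them Lrp4 (−0.86 ± 0.10), a receptor at the neuromuscular junction, and Ache (−0.94 ± 0.13), encoding acetylcholinesterase. Gadd45a, which rises in denervated muscle, rose by 1.25 ± 0.19. The myogenic factor gene Myod1 changed by −1.40 ± 0.17 and Mef2c by −0.62 ± 0.09 (adjusted p at most 1.75e-06). The states of Myod1 overlapped in M-p110αKO, at 7.74–15.1 CPM fed and 7.37–11.8 CPM fasted (edgeR interaction adjusted p = 0.00206). Those of Mef2c overlapped in M-p110βKO, at 591–677 CPM fed and 326–672 CPM fasted.

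Collagen and matrix genes were less uniform. Of 50 genes 14 were core and lower (28.0%, beside 21.8% of all genes), 3 core and higher (6.0%, beside 20.8%) and 10 called without a common direction. The interaction test called 27 of them, and 10.0% of all genes. The block medians of the list were 0.04 in p110α controls, −0.01 in M-p110αKO, −0.24 in p110β controls and −0.86 in M-p110βKO. The summed level of 8 fibroblast markers moved with them: its medians, fed and fasted, were 263 and 358 CPM in p110α controls, 301 and 333 CPM in M-p110αKO, 342 and 301 CPM in p110β controls and 401 and 197 CPM in M-p110βKO. The part of fibroblasts in the collagen result was not tested. Col15a1, a collagen of the basement membrane zone, fell in each block (−0.81, −1.08, −1.09 and −2.03), and Serpinh1, the collagen chaperone, changed by −0.89 ± 0.11 over all mice. Lox, which cross-links collagen, rose by 1.36 ± 0.15 (edgeR adjusted p at most 2.73e-08). Apln, a secreted peptide, and its receptor gene Aplnr, found in endothelial cells, changed by −2.15 ± 0.28 and −1.34 ± 0.15, and Ostn, encoding the muscle peptide musclin, by −1.33 ± 0.19 (adjusted p at most 8.1e-07).

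Glucocorticoid-responsive genes rose, 12 of 28 as core genes (42.9%, beside 20.8% of all genes), 1 fell and 9 were called without a common direction. The 1 that fell was Sgk1 at −0.74 ± 0.15 (interaction adjusted p = 0.0276). Its states overlapped in both genotypes of the p110β line, with 214–259 CPM fed and 202–264 CPM fasted in M-p110βKO. Cdkn1a, the cell cycle inhibitor p21, held 13.2–46.0 (median 18.9) CPM fed and 41.8–130.5 (median 72.4) CPM fasted, 1.89 ± 0.18 higher (edgeR adjusted p = 5.14e-10), and Cebpd, a transcription factor gene, held 13.7–79.2 (median 46.1) and 66.4–224 (median 164) CPM, 1.96 ± 0.20 higher (1.44e-09). Neither Cdkn1a nor Cebpd overlapped between states within a block. The list was uneven across genotypes, since 20 of its genes passed the interaction test (10.0% of all genes did). Its block medians were 0.35 and −0.13 in p110α controls and M-p110αKO but 1.41 and 1.10 in p110β controls and M-p110βKO.

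Stress genes rose in part. Ppp1r15a, encoding GADD34, which restores translation after stress, held 6.04–14.7 (median 9.36) CPM fed and 23.5–53.3 (median 33.4) CPM fasted, 1.79 ± 0.11 higher (edgeR adjusted p = 8e-14), with no overlap in any block. Over all genes 20.8% were core and higher and 21.8% core and lower. Of 36 genes of the ATF4 and unfolded protein responses 13 were core and higher (36.1%) and 6 core and lower (16.7%). Dnajb9 was at 1.01 ± 0.09 and the serine synthesis gene Psph at −1.08 ± 0.09. Of 29 antioxidant genes 11 rose (37.9%) and 7 fell (24.1%), with Cat, encoding catalase, at 1.41 ± 0.10, Gclm, of glutathione synthesis, at 1.15 ± 0.11 and Nfe2l2, encoding NRF2, at 1.08 ± 0.10. Of 32 heat shock genes 9 rose (28.1%) and 6 fell (18.75%), with Hspb7 at 1.85 ± 0.23 and Hspb3 at −1.19 ± 0.11. The adjusted p of these 7 genes was at most 4.72e-08. Interferon response genes that were core all fell, 12 of 28 tested (42.9%, beside 21.8% of all genes), such as Irf1 (−0.48 ± 0.10) and Bst2 (−0.82 ± 0.14).

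Genes of the cell cycle and clock moved both ways. Rbl2, the retinoblastoma-like protein p130 that holds cells out of the cycle, rose in each block (1.53, 1.24, 1.37 and 1.44) and by 1.40 ± 0.06 over all mice (edgeR adjusted p = 2.33e-17). Ccng2, a cyclin gene under FoxO, rose by 0.93 ± 0.07, and the cyclin gene Ccnd1 changed by −1.55 ± 0.24. Of 24 clock genes 6 rose and 5 fell as core genes, shares of 25.0 and 20.8% that lie near the 20.8 and 21.8% of all genes. The interaction test called 13 of the 24, beside 10.0% of all genes. The clock output factors Dbp (−1.80 ± 0.18) and Hlf (−1.05 ± 0.11) and the repressor gene Bhlhe41 (−1.53 ± 0.15) fell, and Cry2 (1.04 ± 0.11) rose (adjusted p at most 3.42e-06). Of 25 immediate early genes 6 were core and higher (24.0%, again near the share of all genes), with Maff at 2.11 ± 0.19. Of the 25, 13 passed the interaction test (10.0% of all genes did).

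The remaining lists had members on both sides. As core genes, 7 of 20 PGC-1 and ERR regulators rose and 4 fell. The share that rose was above the 20.8% of all genes, and the share that fell was near the 21.8% of all genes. For 36 genes of mitochondrial dynamics and import these counts were 7 and 12 (19.4 and 33.3%). For 19 enzymes of glutamine, alanine, aspartate and polyamines they were 4 and 6 (21.1 and 31.6%). For 22 myogenic and satellite cell genes they were 3 and 4 (13.6 and 18.2%, both below the shares of all genes). Of 27 myostatin, activin and BMP genes 7 rose and 6 fell (25.9 and 22.2%, near the shares of all genes). Among them were the receptor gene Tgfbr1 at 0.64 ± 0.06 and the signal transducer gene Smad3 at −1.10 ± 0.11 (edgeR adjusted p at most 1.07e-09). Myostatin itself, Mstn, rose by 0.45 ± 0.13 (edgeR adjusted p = 0.00447). Of 19 cell cycle inhibitor and GADD45 genes 7 rose and 5 fell (36.8 and 26.3%), and of 17 proliferation genes 5 and 4 (29.4 and 23.5%). Of 18 muscle-secreted factors 2 rose and 6 fell (11.1 and 33.3%), and of 31 endothelial and VEGF genes 1 and 6 (3.23 and 19.4%).

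**Figure D3:**
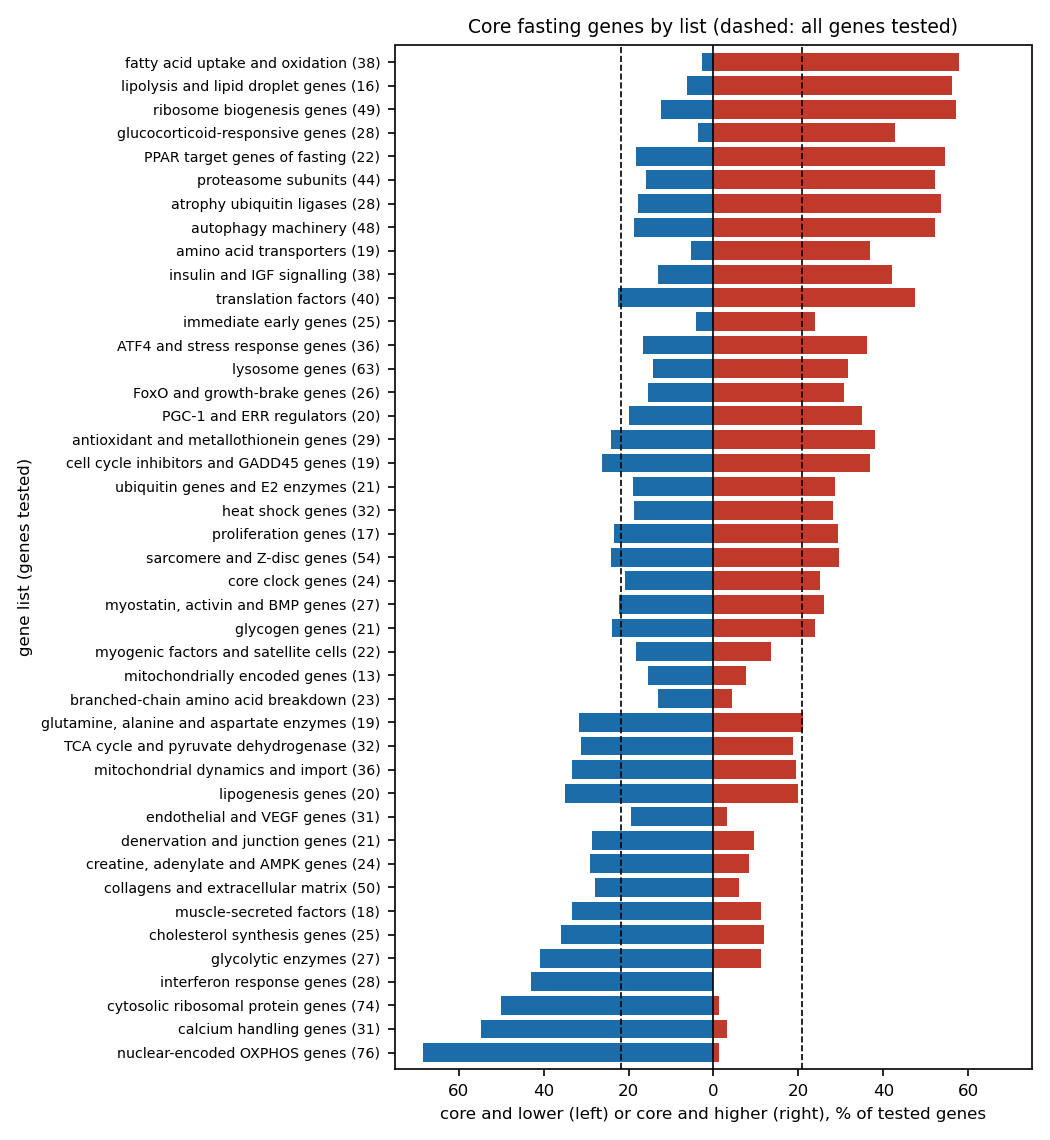
Share of the tested genes of each list that were core and higher (right, in percent) or core and lower (left) in fasted muscle, with the number tested beside the name, and dashed lines at the shares over all 12760 genes, 20.8% and 21.8%. Fatty acid, ribosome biogenesis and lipolysis lists reach furthest to the right and OXPHOS, calcium handling and ribosomal protein lists furthest to the left.

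The 4 blocks share no mouse, so that genes chosen in 3 of them can be read in the fourth. Of 5620 genes called without the p110α controls, 90.8% moved the same way in them when these were fitted alone, 50.5% were also called there and 23 were called the opposite way, where 32.4% of all genes were called. In M-p110βKO 91.4% of 5435 genes moved the same way and 55.5% were called (38.4% of all genes). In p110β controls these shares were 90.6% of 5788 and 40.2% (24.7% of all genes). The smallest agreement was in M-p110αKO, with 82.7% of 6265 genes moving the same way, 24.4% called and 44 called the opposite way, where 16.8% of all genes were called in the 7 libraries.

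Each block's own contrast in the fit over all libraries called 32.6% of genes in p110α controls, 23.8% in M-p110αKO, 25.2% in p110β controls and 36.4% in M-p110βKO. The smallest of the 4 folds belonged to M-p110αKO for 950 of the 2654 core genes that rose, against 644, 565 and 495 for p110α controls, p110β controls and M-p110βKO. Of the 2787 that fell it belonged to M-p110αKO for 1054, against 531, 601 and 601. Genes that were core in the 3 other blocks were set against the fed mean of the library's own block. Those that were higher there by at least 1 lay 1.02–1.15 higher (median over genes, lowest to highest library) in the 4 fasted p110α controls, 0.68–0.88 in the 3 fasted M-p110αKO, 1.28–1.57 in the 3 fasted p110β controls and 1.01–1.38 in the 4 fasted M-p110βKO. Fed libraries, each set against the other fed ones of its block, lay between −0.16 and 0.23. For these genes the ranges of M-p110αKO and of the other 3 genotypes do not overlap, but each block is read on a gene set of its own, of 319, 383, 278 and 297 genes. Over all genes core and higher in the other 3 blocks, without the limit of 1, the ranges were 0.38–0.43, 0.25–0.37, 0.39–0.53 and 0.37–0.50 in the same order, with overlap between M-p110αKO and M-p110βKO. Over all those core and lower they were −0.44 to −0.41, −0.40 to −0.21, −0.52 to −0.36 and −0.52 to −0.35, with overlap between M-p110αKO and both genotypes of the p110β line.

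**Figure D4:**
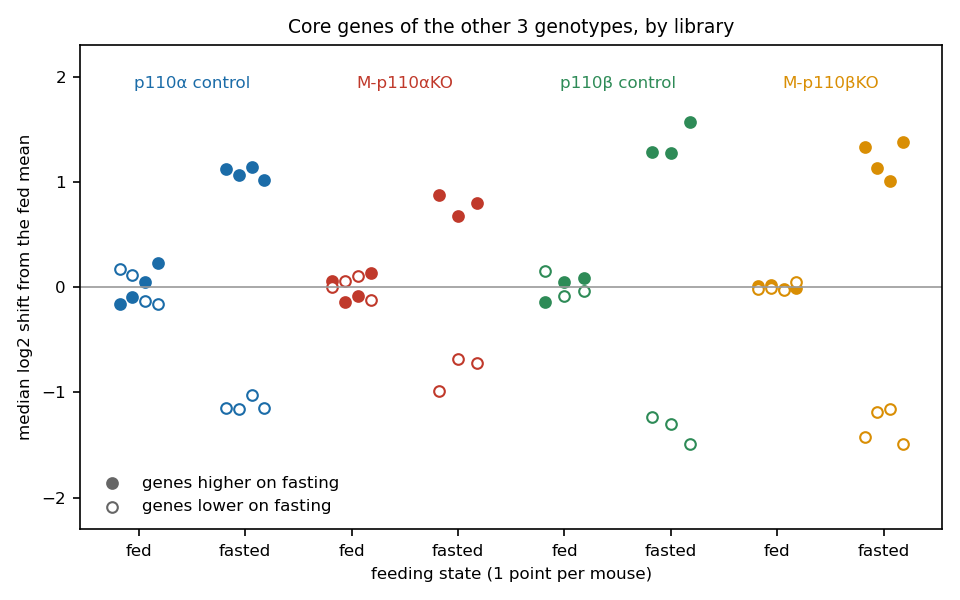
Median log2 shift of each library from the fed mean of its own genotype, over genes that were core in the 3 other genotypes and moved by at least 1 there, for genes higher (filled points) and lower (open points) on fasting. Each point is 1 mouse, and a fed mouse is set against the other fed mice of its genotype. Fasted M-p110αKO lie nearest to 0 among fasted libraries, at 0.68–0.88 for the genes that rose.

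The size of the fasting change differed between genotypes for part of the core. The interaction test called 1278 genes (10.0%), of which 334 were core (198 higher and 136 lower) and 944 were not. The test does not say which blocks differ, and it called 339 genes without the M-p110βKO block, 484 without the M-p110αKO block and 167 in floxed controls alone. Among the 10 core genes of lowest interaction p, Pdk4 had block folds of 1.78, 1.14, 2.93 and 3.61 (interaction adjusted p = 0.000258). Its fed level was lower in the p110β line, at 372–924 CPM against 921–3298 CPM in the p110α line. Fasted levels of Pdk4 were alike, at 4751–6089 CPM against 4423–7420 CPM. Mt1, encoding a metallothionein, held 5.41–31.7 (median 10.6) CPM fed and 17.6–123 (median 74.6) CPM fasted, with block folds of 0.44, 0.80, 3.23 and 3.80 (5.51e-06). The folds of Pdk4 and Mt1 were larger in both genotypes of the p110β line than in both of the p110α line. The same order held for Pde4d (0.69, 0.36, 1.92 and 2.17), a phosphodiesterase of cAMP, Synj2 (0.24, 0.21, 1.55 and 2.27), a phosphoinositide phosphatase, Plin4 (0.24, 0.36, 2.05 and 2.46), which coats lipid droplets, and Gm10603 (0.30, 0.56, 2.34 and 2.41), antisense to the uncoupling protein gene Ucp3 and not told apart from it. Among those that fell, Sept4 (−0.12, −0.04, −1.88 and −1.28), Fam53b (−0.49, −0.32, −1.27 and −1.45) and Relt (−1.61, −0.69, −2.55 and −2.40) also changed more in the p110β line, while Cd200 (−0.47, −1.53, −0.05 and −0.16) changed most in M-p110αKO. The interaction adjusted p of these 8 genes was at most 0.000474.

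Other genes broke the rule. Of the 1278 genes with an interaction 188 were called higher in one block and lower in another, and in 268 both genotypes of 1 line went against both of the other. Nr1d1, encoding the clock repressor REV-ERBα, had block folds of 0.39, 0.77, −1.82 and −1.45 and a shared coefficient of −0.47 ± 0.22 (edgeR adjusted p = 0.0678), which did not pass. Col5a3, Fbn1 and Mmp14, 3 genes of the extracellular matrix, were higher in the p110α line and lower in the p110β line, at 0.43, 0.58, −0.77 and −1.39, at 0.92, 0.90, −0.88 and −1.28 and at 0.85, 0.98, −0.33 and −1.06. Prickle3 went the other way (−0.73, −0.30, 1.23 and 1.45), as did Rnf144b (−0.21, −0.94, 0.73 and 0.89). Fam117b (0.18, −1.33, 0.60 and 2.01), Thra (−0.26, 0.55, −0.47 and −0.56), which encodes the thyroid hormone receptor α and overlaps Nr1d1, Aldoart1 (−0.55, 2.00, −0.35 and −0.82) and the pseudogene Gm12286 (−0.46, 2.00, −1.16 and −1.63) departed in M-p110αKO from the other 3 genotypes. The interaction adjusted p of these 10 genes was at most 1.34e-05. Aldoart1 and Gm12286 are near-identical to other genes, and their counts are uncertain. Line, genetic background and hour of sampling cannot be told apart here.

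**Figure D5:**
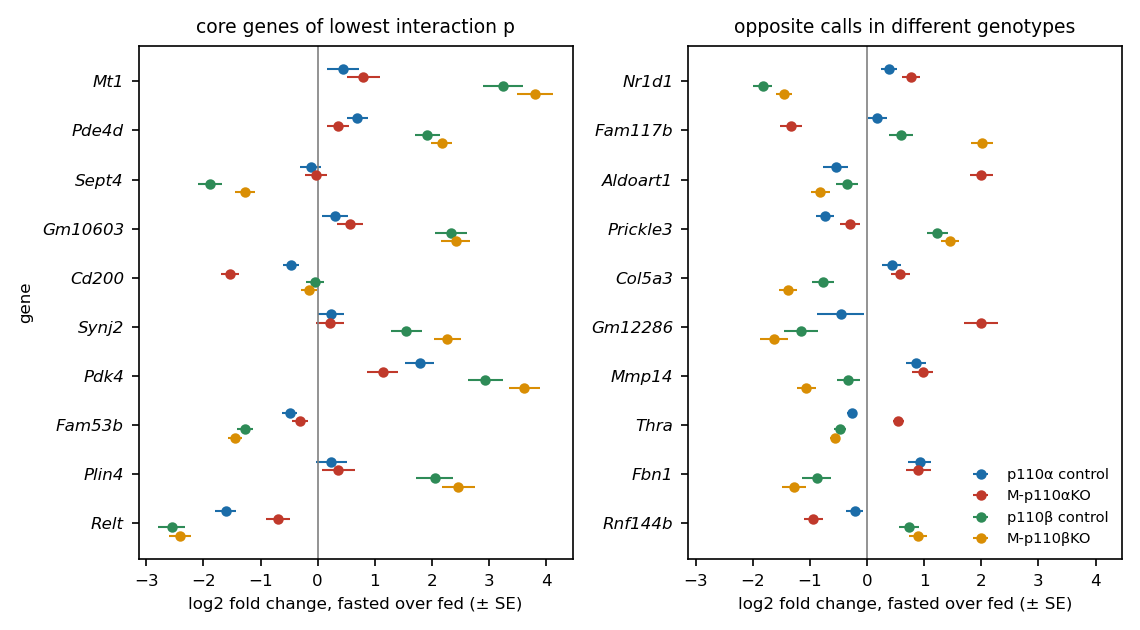
Log2 fold change of fasting in each genotype, with bars of 1 SE, for the 10 core genes of lowest interaction p (left) and the 10 genes of lowest interaction p that were called in opposite directions in different genotypes (right). On the left all 4 points of a gene share their sign, as in Pdk4 (1.78, 1.14, 2.93 and 3.61), and on the right they do not, as in Nr1d1 (0.39, 0.77, −1.82 and −1.45). The choice of the genes required both patterns.

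Core genes differed in length from the rest. The median exon length was 5716 bases in core genes that rose, 3477.5 in those that fell and 4414.5 in all genes tested, and their median GC content was 48.1, 51.2 and 49.6%. Among the 2549 genes with at most 2377 bases of exon 10.1% were core and higher and 32.4% core and lower, and among the 2546 with at least 7649 33.1% and 13.2%. The median log2 fold change of these short genes was below 0 in each block (−0.19, −0.17, −0.21 and −0.18) and that of the long ones above 0 (0.16, 0.10, 0.08 and 0.16). Corrected for length and GC content, 2317 of the 2654 core rises and 2387 of the 2787 core falls were still core, and the medians of short and long genes were −0.05 and 0.01. The part of RNA quality in this trend was not tested. Among core genes of at least 1 on the log2 scale the median exon lengths were closer, 3991 bases for the rises and 3699 for the falls.

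Markers of cell types were read in all libraries. Summed over 9 genes of the muscle fiber the level was 137746–189277 (median 169925) CPM in fed and 146299–166658 (median 158399) CPM in fasted libraries, so the samples are muscle by their defining genes. Of these markers 5 were core and lower (55.6%, beside 21.8% of all genes), Pvalb at −0.85 ± 0.09 and Acta1 at −0.43 ± 0.08 among them. Adipocyte markers summed to 2417–7598 (median 4445) CPM fed and 732–3842 (median 3114) CPM fasted, mostly from Car3, which fast fibers also express and which changed by −0.94 ± 0.18 (edgeR adjusted p = 7.99e-05). Of 7 tested Cidec (2.48 ± 0.62) and Fabp4 (0.50 ± 0.08) were core and higher, and the defining markers Adipoq (1.60 ± 0.70, adjusted p = 0.0536) and Plin1 (1.29 ± 0.78, 0.167) did not pass. These markers were far higher in the fasted p110β controls 23 and 24 than elsewhere, and without both Cidec was at 0.85 (adjusted p = 0.0524) and no longer passed, Fabp4 at 0.41 (3.05e-05), Adipoq at 0.22 (0.766), Plin1 at −0.51 (0.473) and Car3 at −0.72 (8.22e-06). Macrophage markers held 17.9–60.7 (median 31.1) CPM fed and 21.0–88.8 (median 36.7) CPM fasted. Endothelial markers held 279.5–594 (median 413) and 289.6–479 (median 362) CPM. Of those tested 0 of 6 and 0 of 8 were called, beside 52.8% of all genes. At an unadjusted p under 0.05 these were 1 and 2, and DESeq2 called 0 and 0. Fibroblast markers held 188–530.0 (median 315) and 137–438 (median 304) CPM. Of these 8 markers 3 were called, and 1, Lum, was core and lower (−0.90 ± 0.18). Smooth muscle, Schwann and satellite cell markers held 404–695 (median 562), 54.3–139 (median 79.99) and 40.4–61.3 (median 51.9) CPM fed and 431–652 (median 562), 38.7–165 (median 83.1) and 44.3–67.7 (median 52.9) CPM fasted. In the same order 2 of 8, 0 of 6 and 2 of 7 tested were called. Red blood cell markers held 13.7–43.7 (median 24.6) and 7.48–37.0 (median 19.9) CPM. Lymphocyte markers were at 0.528–3.15 (median 1.43) and 0.759–2.01 (median 1.15) CPM and neutrophil markers at 0–0.411 (median 0.238) and 0–0.793 (median 0.292) CPM, with Ly6g and Mpo at 0 in all libraries. The part of these cells in the core response was not tested.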

How the data were processed

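RNA was sequenced from muscle of 29 mice. Per the submitters' processing notes the authors used STAR, featureCounts of Subread and GRCm38. The tool versions, not given in the sources used here, and the strand setting are unknown. The deposited values are raw counts of reads per gene for 48023 gene IDs, 5351935 to 11653239 per library. GENCODE M21 gave a symbol to 47224 IDs, with exon lengths and GC content. Promoter windows came from RefSeq (GRCm38.p6). Within groups 39 pairs of libraries were compared for copies, and chi-square per degree of freedom was 3.92–31.0, so none was a repeat. The labels name 1 mouse per library.

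Counts were analyzed with edgeR 4.0.16 in R 4.3.3: filterByExpr on the 8 groups (minimum count 10, minimum total 15), TMM factors, a quasi-likelihood fit of genotype and treatment, and Benjamini-Hochberg adjustment over the 12760 genes tested. Block folds and the interaction, on 3 degrees of freedom, came from a fit of the 8 group means. The SE is the log2 fold change divided by the square root of its F. The study's methods name no count test. Alternatives were DESeq2 1.42.0, limma-voom (limma 3.58.1), other factors and filters, a spline correction for GC content and exon length (5 degrees of freedom), and fits without single libraries, single blocks, mitochondrially encoded genes or the 20 most abundant genes. Added after the data were seen was a fit without 2 fasted p110β controls high in adipocyte markers, on the same 12760 genes. The scripts were tested on simulated data.

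The members, gene lists and tests were chosen with earlier results of these data known. Named were the 15 largest rises and falls among core genes averaging a log2 CPM of at least 1 without overlap in any block, up to 5 core members of each list of lowest adjusted p and up to 3 against its majority, the 10 core genes of lowest interaction p, the 10 interaction genes of lowest p called in opposite directions, markers, Pik3ca and Pik3cb, of which some genes are not reported here. Acot13, Avpi1 and Sertad1 were named after their values were seen. Without strand, reads of Gabarapl1 and Gm44243, Nmrk2 and Atcayos, Cebpd and Spidr, G0s2 and Lamb3, Rpl3 and Syngr1, and Acsl5 and Zdhhc6, which overlap, cannot be told apart.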

Additional observations from a re-analysis of the deposited data

Results flagged for a closer look

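Single libraries stood apart from the other 3 of their group for some of the 204 genes named (gap to the nearest library over the whole range, Dixon's limit for 4 samples). This held 68 times in 1020 groups of 4 tested, and chance gives about 1 in 20. Groups of 3, which include fasted M-p110αKO and both p110β control groups, were not tested. Each value is the CPM of the library that stood apart.

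In fed p110α controls the highest library stood apart for Atp2a2 (74.6), Avpi1 (5.07), Col15a1 (26.7), Col5a3 (14.1), Eif4ebp1 (27.0), Etfdh (186), Fam53b (34.5) and Sgk1 (472). It did so too for Slc25a34 (21.9), Slc27a1 (137), Tgfbr1 (71.9), Thra (101), Uqcrc2 (669) and Wdr62 (4.65). Among fed p110α controls the lowest library stood apart for Cited4 (2.14), Mlxipl (64.5), Psph (14.9), Serpinh1 (28.3) and Tgif1 (2.90).

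Within fed M-p110αKO the highest library stood apart for Bst2 (5.97), Hilpda (1.68), Il6ra (17.7), Lum (22.2), Maff (10.2), Mef2c (899), Psme1 (33.7) and Sgk1 (300.3). It did so too for Slc7a2 (141), Tnfaip2 (63.1) and Ube2g1 (190.5). In fed M-p110αKO the lowest library stood apart for 6430571L13Rik (78.5), Amd1 (217), Ampd1 (627), Atg4d (29.0), Atp5d (134), Igf1r (45.3) and Prkag3 (121).

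Among fasted p110α controls the highest library stood apart for Amd1 (304), B230312C02Rik (3.59), Mt1 (37.9), Plcd4 (28.4), Scd2 (14.3), Sgk1 (212) and Smox (268). Within fasted p110α controls the lowest library stood apart for Cited4 (0.285), Lss (5.71), Nr1d1 (28.0) and Pde4d (436).

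In fed M-p110βKO the highest library stood apart for Acot13 (51.9), Ccng2 (36.3), Dnajb9 (57.6), Eif4ebp1 (18.6), Rnf144b (47.1), Sqstm1 (487) and Tpm1 (28529). Among fed M-p110βKO the lowest library stood apart for Mef2c (591).

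Within fasted M-p110βKO the highest library stood apart for Acot13 (41.2), Cd200 (42.4), Ky (86.4), Nr1d1 (26.2), Phkg1 (279.9), Plcd4 (27.1), Sept4 (11.7) and Smad3 (155). It did so too for Stac3 (133) and Ugp2 (2068). In fasted M-p110βKO the lowest library stood apart for Avpi1 (3.93) and Cdkn1a (41.8).

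The fasting change differed between genotypes (edgeR test of the interaction on all 4 blocks) for 61 of the genes named, and adjusted p-values are given in parentheses. Over all genes 10.0% were called. The count for named genes was partly set by their choice. Named for a low interaction p were 10 core genes and 10 genes called in opposite directions, and these are the genes below up to Relt. The lowest values belonged to Nr1d1 (1.43e-09), Fam117b (6.85e-08), Aldoart1 (1.63e-07), Prickle3 (2.54e-07), Col5a3 (4.49e-06), Mmp14 (5.51e-06), Mt1 (5.51e-06) and Gm12286 (5.51e-06). Next came Thra (6.57e-06), Fbn1 (9.73e-06), Rnf144b (1.34e-05), Pde4d (8.28e-05), Sept4 (8.52e-05), Gm10603 (0.000107), Cd200 (0.000209) and Synj2 (0.000243). Then followed Pdk4 (0.000258), Fam53b (0.000304), Plin4 (0.000441), Relt (0.000474), Acot2 (0.000589), Trim63 (0.00152), Myod1 (0.00206) and Slc25a34 (0.00265). Higher values were those of Acss1 (0.00332), Col15a1 (0.0037), Srebf1 (0.0041), Hlf (0.00411), Retreg1 (0.00604), Plin1 (0.00711), Igfbp5 (0.00744) and Plin5 (0.0103). Closer to the threshold were Ugp2 (0.0105), Cdkn1a (0.0111), Hspb7 (0.0147), Adipoq (0.0173), Pdlim5 (0.0175), Cat (0.0202) and Fbp2 (0.0205). Near it lay Bhlhe41 (0.0217), Tnfaip2 (0.0232), Gadd45a (0.0263), Lum (0.0272), Cd36 (0.0273), Sgk1 (0.0276), Ache (0.0297) and Pik3ca (0.0303). Values closer still belonged to Prkag3 (0.0308), Mlxipl (0.0311), Dnajb9 (0.0319), 6430571L13Rik (0.0332), Cidec (0.0353), Eif4ebp1 (0.0362), Maff (0.0363) and Cebpd (0.0369). The highest were those of Acacb (0.0392), Il6ra (0.0395), Stac3 (0.0435), Sesn3 (0.0458), Fbxo21 (0.0476) and Slc27a1 (0.0492).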

How the results depend on the processing

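No paired analysis was possible because each mouse has a number of its own, from 1 to 29, in the labels. Every alternative but 1 was listed beforehand, with earlier results of these data known. The fit without the fasted p110β controls 23 and 24, high in adipocyte markers, was chosen after seeing the data, and it ended the call of Cidec and that of no other gene named. The counts of core and of called genes stayed within 1.5 times their value under each of them: core rises lay between 2251 and 3043 and core falls between 2492 and 3275. The lowest and highest counts without 1 library were 2577 and 2786 for core rises, 2605 and 2800 for core falls, 3238 and 3503 for all genes called higher, 3242 and 3405 for all called lower, and 876 and 1537 for the interaction. Upper-quartile factors moved the calls to 2873 higher and 4010 lower, with 2251 of the 2654 core rises and all 2787 core falls still core. In floxed controls alone 2048 of the core rises and 2093 of the core falls were core. No sign of a core gene turned except with counts corrected for length and GC content, where 5 core rises and 4 core falls did.

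The interaction count was less stable than the core: 1278 genes became 2062 with no filter beyond 1 read, 484 without the M-p110αKO block, 339 without the M-p110βKO block and 167 in floxed controls alone. The last 3 fits hold fewer libraries and blocks. Of the 204 genes named 183 kept their side of the threshold under every setting tried and no called gene turned its sign. Rpl3 (adjusted p 0.0136–0.327 over the settings), Pik3ca (0.00112–0.464) and Avpi1 (0.0152–0.732) lost their calls under 16, 15 and 31 settings, and Adipoq (5.62e-05 at the lowest), Sertad1 (0.00018), Nr1d1 (7.01e-07) and Thra (3.18e-06) gained one under 19, 15, 13 and 11. The cause was not tested. Of the list counts 43 moved by more than 1.5 times, 16 of them in floxed controls alone, such as interferon genes core and lower (12 to 7) and immediate early genes core and higher (6 to 10). With an adjusted p under 0.01 in the 3 other blocks, 94.3, 86.4, 94.2 and 94.3% of genes moved the same way in p110α controls, M-p110αKO, p110β controls and M-p110βKO. Depth limits genes of few reads, such as Acot1 and Foxo6 with libraries at 0.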
